A study of Mus musculus with 136 samples.

Results

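The 9 short structured non-coding RNAs were followed here in embryos and visceral yolk sacs from normoglycemic and diabetic pregnancies of NOD mice. They were taken from the deposited table by gene name, 9 of its 47643 rows: the Y RNAs Rny1 and Rny3, the 7SK RNA Rn7sk, the vault RNA Vaultrc5, the minor spliceosome RNAs Rnu11 and Rnu12, the small Cajal body RNAs Scarna9 and Scarna17, and the small nucleolar RNA Snord43. The first 4 are products of RNA polymerase III and the other 5 are made by RNA polymerase II. The 9 were chosen because their counts were higher in embryos of diabetic dams, so their difference between diabetic and normal embryos is described below without a test, and tests are given for yolk sacs, tissue, stage, sex and maternal glucose. NOD females become diabetic spontaneously, and both diabetic and normoglycemic females were mated to normoglycemic NOD males, so that all groups share the strain. Each of 66 concepti at embryonic day 8.5 gave 1 embryo library and 1 yolk sac library, 132 libraries in all, with 17 diabetic and 17 normal concepti at 5–6 somite pairs and 16 of each at 7–9 somite pairs. The yolk sac was staged by the somites of its own embryo. The concepti came from 12 diabetic and 10 normoglycemic dams, whose blood glucose was 423 to 595 mg/dl, with 1 reading above the range of the meter, and 105 to 164 mg/dl. Littermates share a dam, so p-values computed over libraries measure the spread between libraries and not only that between pregnancies.

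These RNAs work as RNA and encode no protein. Y RNAs bind the Ro protein (Trove2) and the La protein (Ssb), 7SK holds the transcription elongation factor P-TEFb inactive together with Hexim1, Larp7 and Mepce, and vault RNA is part of the vault particle built from the major vault protein Mvp. U11 and U12, encoded by Rnu11 and Rnu12, recognize the rare introns removed by the minor spliceosome, the small Cajal body RNAs guide chemical modification of spliceosomal RNAs, and Snord43 belongs to the C/D box small nucleolar RNAs that guide methylation of ribosomal RNA. In their mature form none of them carries the long poly(A) tail of a messenger RNA, while the 3′ end libraries used here were primed with oligo(dT). The counts are therefore those of molecules that were copied in spite of this, and how they came to be primed was not tested.

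The sequences of 7 of the 9 RNAs are shown as annotated in GENCODE M21 on mouse build GRCm38, 5′ to 3′ and in DNA letters, because their ends and their short motifs tell the polymerase III from the polymerase II products. Capitals mark the run of T at the 3′ end of the polymerase III products, the letters AATTTTT of the protein binding site in U11 and U12, and the box C letters TGATGA and box D letters CTGA of Scarna9 and Snord43. Of the 331 bases of Rn7sk, the last 100 are shown.
Rny3: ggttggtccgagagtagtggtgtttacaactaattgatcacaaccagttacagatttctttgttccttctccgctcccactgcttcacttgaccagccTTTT
Rny1: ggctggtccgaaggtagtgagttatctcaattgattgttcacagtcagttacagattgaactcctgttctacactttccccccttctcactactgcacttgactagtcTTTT
Rn7sk: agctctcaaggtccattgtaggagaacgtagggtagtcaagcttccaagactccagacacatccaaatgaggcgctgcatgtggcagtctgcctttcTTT
Rnu11: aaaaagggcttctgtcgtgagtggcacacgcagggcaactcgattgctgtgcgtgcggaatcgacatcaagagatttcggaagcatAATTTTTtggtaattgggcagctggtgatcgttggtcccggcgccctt
Rnu12: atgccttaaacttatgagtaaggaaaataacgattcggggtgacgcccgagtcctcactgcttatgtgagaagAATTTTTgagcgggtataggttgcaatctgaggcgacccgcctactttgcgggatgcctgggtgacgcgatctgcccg
Scarna9: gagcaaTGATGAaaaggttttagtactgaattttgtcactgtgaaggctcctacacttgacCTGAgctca
Snord43: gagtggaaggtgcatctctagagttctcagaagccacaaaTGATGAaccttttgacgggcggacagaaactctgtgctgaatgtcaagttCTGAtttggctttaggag

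All 4 polymerase III products end in TTT and none of the 5 polymerase II products does, compared with 18% of the 3508 annotated short transcripts searched on their own strand. AATTTTT was found in Rnu11 and Rnu12, and in 2.91% of the transcripts searched. TGATGA followed by CTGA was found in Scarna9, Scarna17 and Snord43, and in 11.3% of them. None of the 9 holds a run of 6 or more A, which 4.7% of the short transcripts do, and the longest such run is 5 bases at the start of Rnu11, 4 in Rnu12 and Scarna9, 3 in Rn7sk and Snord43, and 2 in the others. Rny1 and Rny3 share 81 of 112 aligned positions, an identity of 72.3%.

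The Y RNA genes lie close together, Rny3 at chr6:47781624-47781725 on the forward strand and Rny1 at chr6:47788069-47788180 on the reverse strand. Rn7sk lies at chr9:78175303-78175633 on the reverse strand, with the bases shown at chr9:78175303-78175402. Rnu12 lies at chr15:83149644-83149794 on the forward strand, and Rnu11 at chr4:132270080-132270213 on the reverse strand within an exon of the opposite-strand long non-coding RNA Gm28872, which had 0 counts in every library. Scarna9 (chr9:15326264-15326333) lies in an intron of Cep295 and Snord43 (chr15:80082847-80082954) in an intron of Rpl3, both on the reverse strand like their host genes. Vaultrc5, of 143 bases, and Scarna17, of 79 bases, are on chromosome 18. No gene had an exact copy among the annotated short transcripts. Rnu12 had 3 copies of at least 90% identity over at least 80% of its length, which together held 464 counts beside the 1729 of Rnu12 itself, so reads of Rnu12 could be split with them. The copies of Rny1, Rnu11, Vaultrc5 and Scarna17 held 5 to 31 counts beside 1347 to 9623, and Rny3, Rn7sk, Scarna9 and Snord43 had none.

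Libraries held 1017901 to 5658850 counted molecules, with a median of 2302819. The 10 visceral endoderm and 5 primitive erythroid markers were higher in yolk sacs and the 6 embryo proper markers lower at both stages, so the 2 tissues matched their labels. Litter D24M15 stood apart, and it gave 7 of the 16 diabetic concepti at 7–9 somite pairs and 2 of the 17 at 5–6. Values without it stand beside the results in which it takes a large part. In whole tissue, fewer cells of a type and less RNA per cell cannot be told apart.

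In embryos, normalized counts of the polymerase III products were higher in the diabetic libraries at both stages, with more separation at 7–9 somite pairs, although whether the difference changed with stage was not tested. Rny3 ranged from 15.8 to 1396 normalized counts at 7–9 somite pairs in diabetic embryos, with a median of 631. In normal embryos it ranged from 20.5 to 177, with a median of 52.8. Thus 14 of 16 diabetic embryos lay above every normal embryo, 7 of the 14 from litter D24M15, and 1 lay below them all. At 5–6 somite pairs the Rny3 median was 172 (12.0 to 1529) in diabetic and 72.9 (4.58 to 206) in normal embryos, and 7 of 17 diabetic embryos lay above the normal range. Rny1, the other Y RNA, had a median of 142 (15.8 to 430) against 25.8 (12.8 to 91.97) at 7–9 somite pairs, and again 14 of 16 diabetic embryos were above the normal range. The Rny1 medians at 5–6 somite pairs were 105 (8.73 to 541) and 27.6 (7.32 to 108), and 8 of 17 diabetic embryos were above that range. Both Y RNAs therefore overlapped between the groups at the earlier stage and were mostly separated at the later one.

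Vaultrc5 followed the same pattern. Its median at 7–9 somite pairs was 145 (7.24 to 425) in diabetic and 18.2 (3.16 to 61.9) in normal embryos, with 13 of 16 diabetic embryos above the normal range. The Vaultrc5 medians at 5–6 somite pairs were 42.0 (0.924 to 317) and 13.6 (1.42 to 64.3), with 5 of 17 above it and 1 below it. Rn7sk was counted at lower numbers. Its median at 7–9 somite pairs was 49.9 (1.32 to 132) against 4.97 (2.11 to 29.5), and at 5–6 it was 18.3 (5.54 to 101) against 9.34 (3.66 to 21.2). Of the diabetic embryos, 11 of 16 and 8 of 17 were above the normal range, and the lowest Rn7sk value at 7–9 somite pairs was in a diabetic embryo.

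The polymerase II products showed the same order of groups at 7–9 somite pairs. Rnu11 had a median of 274 (13.2 to 1097) in diabetic and 25.7 (4.83 to 110) in normal embryos, and 12 of 16 diabetic embryos were above the normal range. Rnu12, its partner in the minor spliceosome, had a median of 54.2 (7.90 to 166) against 7.11 (0 to 34.98), with 10 of 16 above. The groups overlapped for both, in the lower part of the diabetic range. Snord43 had a median of 60.5 (2.63 to 135) against 6.95 (0 to 22.6), with 15 of 16 above. Scarna9 had a median of 122 (18.4 to 524) against 38.2 (19.8 to 55.0), with 14 of 16 above and 1 below. Scarna17 had a median of 28.1 (5.93 to 57.7) against 4.93 (2.12 to 23.3), with 10 of 16 above. All 7 embryos of litter D24M15 were above the normal range for each of the 9 RNAs. These 7 share 1 dam. Embryos above the normal range were not counted for all genes, and the RNAs were chosen on this contrast, so nothing is read from such counts.

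The polymerase II products split at 5–6 somite pairs. Rnu11 had a median of 46.0 (1.09 to 858) in diabetic and 21.7 (3.66 to 88.0) in normal embryos, and Rnu12 had 13.6 (0.924 to 97.6) against 5.03 (0.710 to 19.1), each with 7 of 17 diabetic embryos above the normal range. Snord43 had 14.3 (1.09 to 91.5) against 8.50 (0 to 20.7), with 6 of 17 above. Scarna9 and Scarna17 differed least. Scarna9 had a median of 31.1 (7.71 to 158) against 26.8 (7.32 to 65.4), and Scarna17 had 6.55 (1.51 to 35.6) against 4.44 (0.915 to 19.1), with 2 of 17 diabetic embryos above the normal range for each. The normal and diabetic ranges of these guide RNAs thus largely coincided at this stage.

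**Figure D1:**
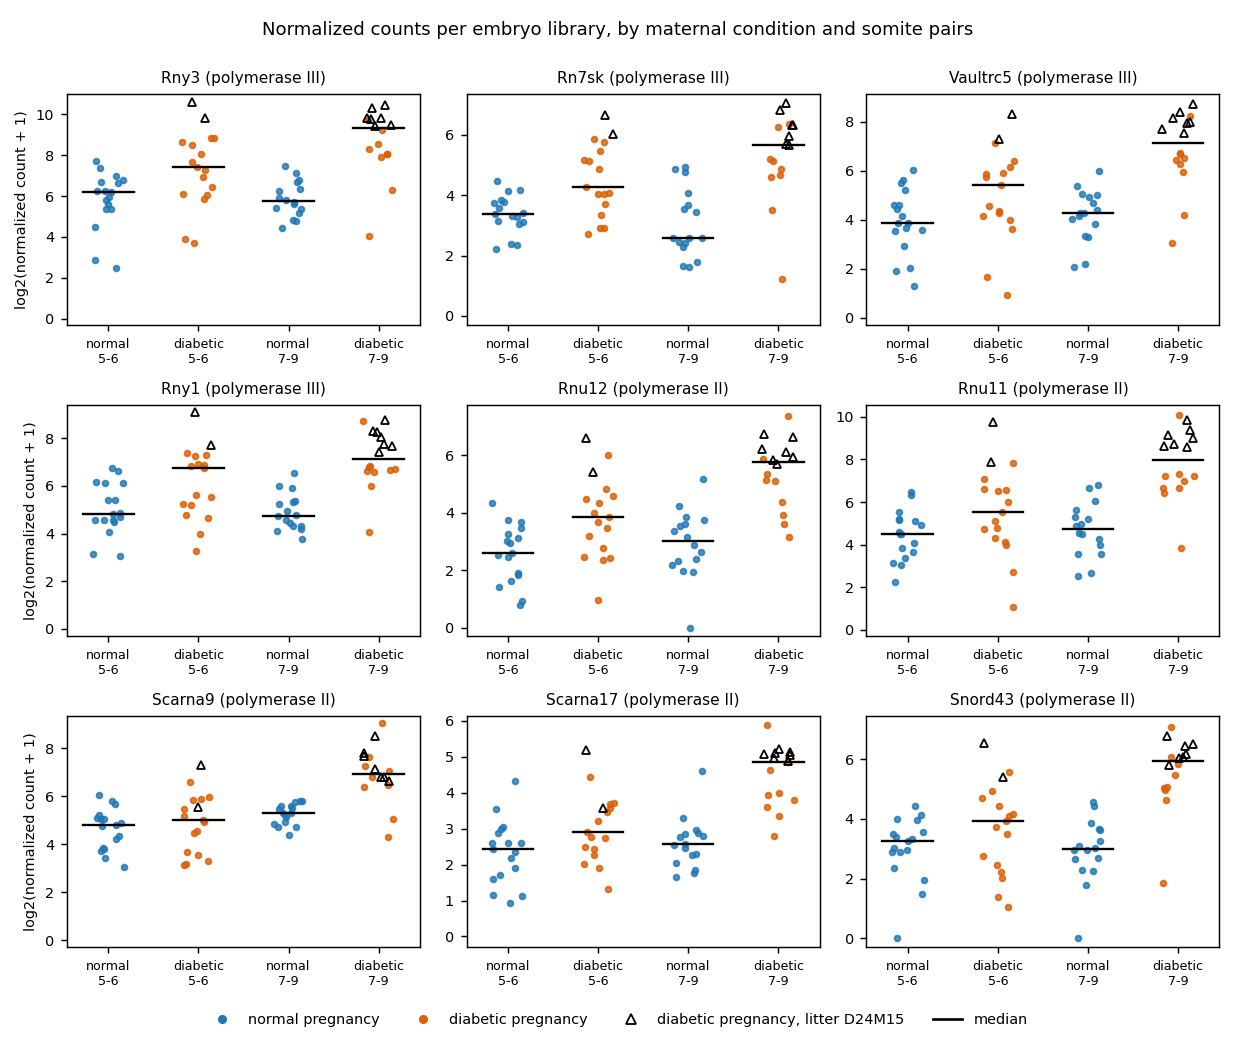
Each point is 1 embryo library, placed by its log2(normalized count + 1) for the RNA named above the panel. Groups are normal and diabetic pregnancies at 5–6 and 7–9 somite pairs (n = 17, 17, 16 and 16 libraries), bars are medians, and open triangles mark litter D24M15. In the 7–9 groups most diabetic libraries sit above the normal ones, from 10 of 16 for Rnu12 and Scarna17 to 15 of 16 for Snord43.

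As fitted log2 differences (± SE) between diabetic and normal embryos at 7–9 somite pairs, the polymerase III products had 3.16 ± 0.38 for Rny3, 2.996 ± 0.38 for Vaultrc5, 2.49 ± 0.32 for Rny1 and 2.41 ± 0.39 for Rn7sk, with a median of 2.74. The polymerase II products had 3.39 ± 0.45 for Rnu11, 2.81 ± 0.33 for Snord43, 2.62 ± 0.37 for Rnu12, 2.12 ± 0.29 for Scarna17 and 2.04 ± 0.29 for Scarna9, with a median of 2.62. The differences of the 2 classes thus covered nearly the same range, and Rnu11, made by polymerase II, had the highest value of the 9. Among embryos with 5–6 somite pairs the polymerase III products ranged from 1.49 ± 0.40 for Rny1 to 2.02 ± 0.46 for Rny3, with a median of 1.58, and the 4 polymerase II products that passed the filter on low counts ranged from 0.57 ± 0.33 for Scarna9 to 2.01 ± 0.52 for Rnu11, with a median of 1.46. Scarna17 did not pass the filter at that stage. The median over all genes was 0.0038 and −0.0099 at the 2 stages. By an adjusted p under 0.05 from edgeR, 5 of 8 of the RNAs at 5–6 and 9 of 9 at 7–9 somite pairs were higher, beside 0.591% and 5.2% of all genes tested. The RNAs were chosen on this contrast, so nothing is read from these counts.

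**Figure D2:**
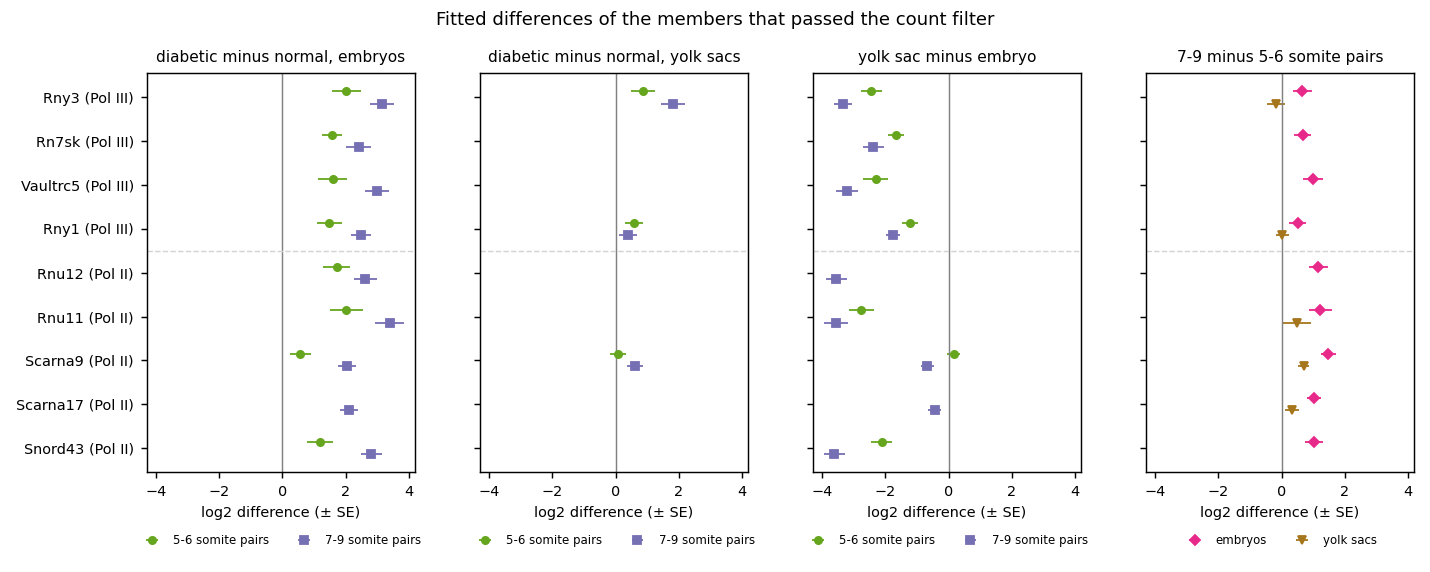
Fitted log2 differences from edgeR, with bars of 1 SE, for each RNA that passed the count filter, polymerase III products above the dashed line and polymerase II products below it. From left to right the panels show diabetic minus normal embryos, diabetic minus normal yolk sacs, yolk sac minus embryo, and 7–9 minus 5–6 somite pairs. In embryos all differences lie to the right of 0, and in the third panel all but that of Scarna9 at 5–6 somite pairs lie to the left of it.

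The share of polymerase III products in the summed counts of the 9 RNAs varied more between libraries than between conditions. Its median was 75.1% (46.0% to 81.7%) in diabetic and 67.2% (41.8% to 77.1%) in normal embryos at 5–6 somite pairs, and 61.8% (29.3% to 73.9%) and 58.3% (44.4% to 64.5%) at 7–9. In yolk sacs it was 54.1% and 46.6% at 5–6 and 43.8% and 43.3% at 7–9 somite pairs. The share was thus higher in embryos than in yolk sacs and at the earlier stage in each tissue and condition, as a description of the medians.

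The diabetic values differed widely between litters. At 7–9 somite pairs the summed level of the 9 RNAs was 873 to 1615 CPM (counts scaled to a fixed library total) in the 7 embryos of litter D24M15 and 1577 in the single embryo of litter D28M24. It was 365 to 580 in the 6 embryos of litters D28M31, D28M23 and D23M26, and 44.4 and 254 in the 2 embryos of litter D28M36. The highest normal embryo had 251, so 1 of the 16 diabetic embryos was below the highest normal one. Litter D24M15 at 5–6 somite pairs had 674 and 1454 and the 4 embryos of litter D28M53 had 19.6 to 89.7, against 13.4 to 197 in normal embryos. Litter D28M53 thus lay within the normal range while its dam was in the diabetic group. Between 57.7% and 94.4% of the variance of the log2 normalized counts among diabetic embryos at 7–9 somite pairs lay between litters, depending on the RNA, with 90.8% for Rny3. In normal embryos this share was 42.6% to 75.9% at 7–9 and 55.7% to 94.5% at 5–6 somite pairs. For Rny3 it was 55.1% and 84.2%. Such a share rises with the number of litters among the libraries, also where litters do not differ. There were 6 diabetic and 7 normal litters among 16 embryos each at 7–9 somite pairs. At 5–6 there were 10 normal litters among 17 embryos. The shares are therefore not compared between groups. The summed level did not follow library depth: after removal of the group means the Pearson correlation was −0.114 over 66 embryos and −0.00549 over 66 yolk sacs.

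Without litter D24M15 the ratio of the diabetic to the normal median at 7–9 somite pairs fell for each RNA and remained above 1. It went from 11.9 to 5.00 for Rny3, from 10.7 to 4.87 for Rnu11, from 10.04 to 5.68 for Rn7sk, and from 3.19 to 2.87 for Scarna9. The fitted log2 differences without this litter were 2.30 for Rny3, 2.12 for Vaultrc5, 1.89 for Rny1, 1.75 for Rn7sk, 2.66 for Rnu11, 2.45 for Snord43, 2.25 for Rnu12 and 1.93 for Scarna9, as a description on the contrast that chose them. The values at 5–6 somite pairs were 1.33 for Rny3, 1.21 for Rn7sk, 1.06 for Rnu11, 0.96 for Vaultrc5, 0.95 for Rny1, 0.69 for Snord43 and 0.27 for Scarna9. Taking litters as units, 5 of 6 diabetic litter means at 7–9 somite pairs were above the highest normal litter mean for Rny3, Rny1, Vaultrc5, Scarna9 and Snord43. It was 4 of 6 for Rnu11, 3 of 6 for Rn7sk and 2 of 6 for Rnu12 and Scarna17. Litters D28M24 and D23M26 gave 1 embryo each there, as did normal litters N24M29 and N28M30. At 5–6 somite pairs the RNAs ranged from 3 of 9 (Scarna9, Scarna17 and Snord43) to 6 of 9 (Rn7sk). This was not counted for all genes, so nothing is read from it. With counts summed per litter the log2 differences were 0.61 to 2.31 at 5–6 and 1.97 to 3.14 at 7–9 somite pairs.

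Markers of other tissue were compared between diabetic and normal embryos, first at 7–9 somite pairs, and the groups overlapped. There the log2 differences between diabetic and normal embryos were positive for 8 of the 8 visceral endoderm markers tested, with a median of 0.52, and for 3 of the 3 primitive erythroid markers tested, with values of 1.17 to 1.63. At 5–6 somite pairs 7 of 8 visceral endoderm markers (median 0.19) and 0 of 1 erythroid marker were positive. The summed normalized counts of the 10 visceral endoderm markers were 137 to 3281 (median 529) in diabetic and 94.7 to 1405 (median 433) in normal embryos at 7–9 somite pairs, and 192 to 2068 (median 585) and 356 to 1293 (median 782) at 5–6. The 5 primitive erythroid markers were 35.7 to 4552 (median 224) and 19.1 to 1528 (median 181) at 7–9 somite pairs. None of the visceral endoderm and erythroid markers tested passed the test between diabetic and normal embryos at either stage. The 6 embryo proper markers summed to 802 to 1280 (median 1019) in diabetic and 771 to 1272 (median 1149) in normal embryos at 7–9 somite pairs. At 5–6 they were 801 to 1435 (median 1197) and 1006 to 1641 (median 1338). The part of all these markers in the levels of the 9 RNAs was not tested.

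The yolk sac libraries were not used to choose the RNAs, and they served to ask whether the same RNAs differ in the extraembryonic tissue of the same concepti. Counts were low there, and only Rny3, Rny1 and Scarna9 passed the filter at either stage. None of the 3 passed the edgeR test (0 of 3 at each stage), beside 0% and 0.0194% of all genes called at 5–6 and 7–9 somite pairs, while 863 of 10250 and 1122 of 10317 genes had an unadjusted p under 0.05. Among the 3 RNAs, 2 had an unadjusted p under 0.05 at each stage, and the log2 difference was positive for 3 of 3. Rny3 at 7–9 somite pairs had a median of 17.7 normalized counts (6.27 to 176) in diabetic and 10.1 (2.40 to 25.5) in normal yolk sacs, and 6 of 16 diabetic yolk sacs, 5 of them from litter D24M15, lay above the normal range. Its log2 difference was 1.81 ± 0.38, with a 95% interval of 1.04 to 2.58 and an edgeR adjusted p of 0.072. Without litter D24M15 it was 0.68, with an adjusted p of 0.50. The Rny3 call also depended on the tool, since DESeq2 gave an adjusted p of 0.0115.

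The other RNAs of the yolk sac overlapped more. Scarna9 at 7–9 somite pairs had a median of 48.0 (11.1 to 172) in diabetic and 34.4 (19.7 to 80.0) in normal yolk sacs, a log2 difference of 0.62 ± 0.24 (95% interval 0.13 to 1.11, adjusted p = 0.365). Rny1 had 17.3 (7.07 to 88.2) against 18.5 (7.99 to 43.1), a difference of 0.39 ± 0.28 (95% interval −0.18 to 0.96, adjusted p = 0.639). The intervals thus allow no difference as well as a difference of nearly 1 on the log2 scale for Rny1. At 5–6 somite pairs the differences were 0.88 ± 0.38 for Rny3 (adjusted p = 0.558), 0.58 ± 0.28 for Rny1 (adjusted p = 0.586) and 0.07 ± 0.25 for Scarna9 (adjusted p = 0.955). Without litter D24M15 they were 0.14, 0.28 and −0.20.

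The 6 RNAs below the filter in yolk sacs were counted at a few molecules per library. At 7–9 somite pairs Vaultrc5 had a median of 6.62 normalized counts (0.990 to 96.4) in diabetic and 1.63 (0 to 6.10) in normal yolk sacs, and Rnu11 had 9.67 (0 to 156) against 2.85 (0.833 to 6.81). For each, 9 of 16 diabetic yolk sacs were above the normal range, 7 of them from litter D24M15 for Vaultrc5 and 6 for Rnu11. With no filter on low counts the log2 differences of Vaultrc5 and Rnu11 were 2.93 and 2.83, with adjusted p of 0.00175 and 0.0111. Without litter D24M15 they were 1.27 and 1.04, with adjusted p of 0.544 and 0.620 in a fit added after the data were seen, and the ratio of the medians went from 4.06 to 2.39 for Vaultrc5 and from 3.39 to 1.59 for Rnu11. Rnu12 and Snord43 had 12 and 10 counts in all over the 16 normal yolk sacs at this stage, and 8 and 9 of these libraries had none. With no filter Snord43 had a log2 difference of 2.41 (adjusted p = 0.0521), Rnu12 of 2.03 (adjusted p = 0.0738), Rn7sk of 1.45 (adjusted p = 0.259) and Scarna17 of 0.84 (adjusted p = 0.34). Without litter D24M15 these were 1.45, 1.298, −0.15 and 0.47, with adjusted p of 0.602 to 0.939. All 6 of these differences were positive with the litter, and without it that of Rn7sk was not.

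**Figure D3:**
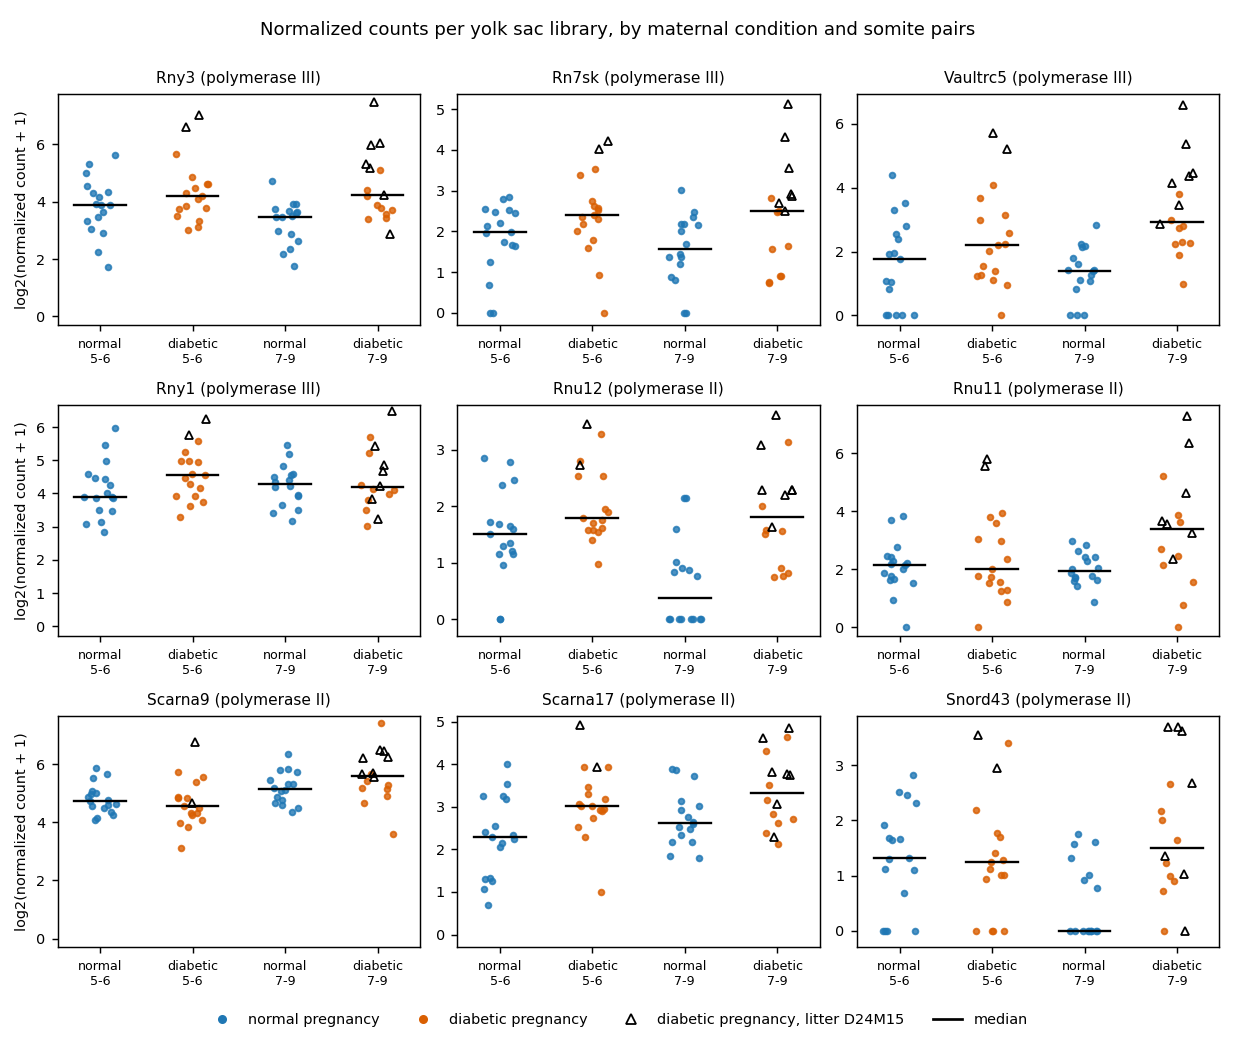
Each point is 1 yolk sac library, placed by its log2(normalized count + 1), with the groups, bars of medians and open triangles for litter D24M15 as in the plot of embryos. The groups overlap for all 9 RNAs, and at 7–9 somite pairs the highest Rny3, Vaultrc5 and Rnu11 values belong to litter D24M15.

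The tissues were then compared, within each conceptus as counts of concepti, and in fits that held no term for the conceptus. Most of the 9 RNAs were lower in the yolk sac, and Scarna9 and Scarna17 differed least. In CPM, Rny3 at 7–9 somite pairs had a median of 306 in diabetic embryos and 8.63 in their yolk sacs, and 25.2 and 4.74 in normal concepti. It was higher in the embryo in all 32 concepti of that stage. In the fit over both conditions, 6 of 7 RNAs tested at 5–6 somite pairs and 8 of 9 at 7–9 were lower in the yolk sac, where 39.8% and 42.6% of all genes were called lower. These fits include the diabetic embryos on which the RNAs were chosen, so their values are a description. In normal libraries alone 3 of 4 RNAs tested were lower at 5–6 somite pairs and 2 of 3 at 7–9, where 35.5% and 39.5% of all genes were.

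In those normal libraries Rny3 fell by 1.91 ± 0.35 on the log2 scale at 5–6 somite pairs (adjusted p = 7.58e-06) and by 2.67 ± 0.28 at 7–9 (adjusted p = 2.69e-11). Rny1 fell by 0.80 ± 0.32 (adjusted p = 0.0227) and by 0.73 ± 0.24 (adjusted p = 0.00684). Rnu11 fell by 2.51 ± 0.38 at 5–6 somite pairs. This value is given without a test, because Rnu11 passed the filter there by its embryo counts and not in yolk sacs. At 7–9 somite pairs Rnu11 was higher in the embryo in 16 of 16 normal concepti without passing the filter. The 2 Y RNAs thus shared a direction in the test, and nothing is read from that of U11. Scarna9 did not pass the test in normal libraries, with differences of 0.37 ± 0.23 (95% interval −0.09 to 0.84, adjusted p = 0.145) and 0.0245 ± 0.17 (95% interval −0.31 to 0.36, adjusted p = 0.901), and was higher in the embryo in 6 of 17 and 8 of 16 normal concepti. Over both conditions the Scarna9 difference was 0.16 ± 0.22 at 5–6 and −0.67 ± 0.19 at 7–9 somite pairs. Scarna17 was higher in the embryo in 5 of 16 normal and 16 of 16 diabetic concepti at 7–9 somite pairs, with a difference of −0.44 ± 0.22 over both.

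The remaining RNAs did not pass the filter in normal libraries, and their differences, from the fit with the diabetic libraries, are given without a test. At 7–9 somite pairs the differences were −3.61 ± 0.33 for Snord43, −3.55 ± 0.33 for Rnu12, −3.22 ± 0.35 for Vaultrc5 and −2.38 ± 0.33 for Rn7sk. In normal concepti alone each of these 4 was higher in the embryo in 15 or 16 of 16 concepti at that stage. At 5–6 somite pairs the differences were −2.30 ± 0.39 for Vaultrc5, −2.12 ± 0.34 for Snord43 and −1.66 ± 0.25 for Rn7sk. The medians of the tested polymerase III and polymerase II products were −1.98 and −2.12 at 5–6 and −2.80 and −3.55 at 7–9 somite pairs.

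**Figure D4:**
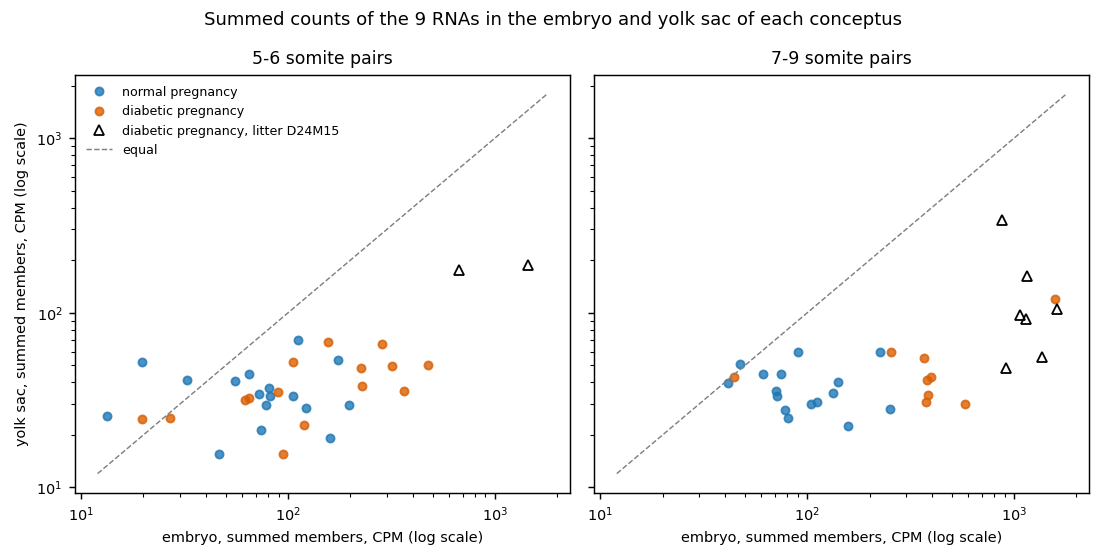
Summed CPM of the 9 RNAs in the embryo (horizontal) and the yolk sac (vertical) of each conceptus, on log axes, at 5–6 somite pairs (left, 34 concepti) and 7–9 somite pairs (right, 32 concepti), with litter D24M15 as open triangles and a dashed line of equal levels. Most points lie below the line, and after removal of the group means the 2 tissues had a Pearson correlation of 0.485 over 66 concepti, or 0.265 over the 57 outside litter D24M15.

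With advancing stage, 7 of 9 RNAs were higher in embryos with 7–9 than with 5–6 somite pairs, where 15% of all genes were called higher, in a fit over both conditions that again includes the diabetic embryos and is given as a description. The log2 differences were 1.48 ± 0.23 for Scarna9, 1.23 ± 0.35 for Rnu11, 1.16 ± 0.30 for Rnu12, 1.03 ± 0.28 for Snord43 and 1.02 ± 0.23 for Scarna17. Among the polymerase III products they were 0.999 ± 0.32 for Vaultrc5, 0.67 ± 0.27 for Rn7sk, 0.66 ± 0.30 for Rny3 and 0.52 ± 0.27 for Rny1. In normal embryos alone 1 of 5 tested RNAs was higher, beside 6.13% of all genes. This was Scarna9, at 0.73 ± 0.21 (adjusted p = 0.0185), while Rnu11 (0.54 ± 0.37, adjusted p = 0.335), Vaultrc5 (0.29 ± 0.36, adjusted p = 0.615), Rny3 (0.08 ± 0.32, adjusted p = 0.894) and Rny1 (0.0059 ± 0.30, adjusted p = 0.993) did not pass. The stage differences of the RNAs other than Scarna9 thus rested on fits that hold the diabetic embryos.

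In yolk sacs 1 of 5 tested RNAs was higher at the later stage, beside 21.7% of all genes. Scarna9 rose by 0.70 ± 0.18 (adjusted p = 0.00128). In normal yolk sacs alone 0 of 3 passed, beside 4.82% of genes, and Scarna9 had 0.41 ± 0.19 (adjusted p = 0.164). The change with stage was compared between the tissues in 1 fit over all 132 libraries, a test added after the data were seen, in which 1 of 9 RNAs had a lower change in yolk sacs, beside 1.49% of all genes. This was Rnu12, at −1.87 ± 0.50, and −2.19 without litter D24M15, in a fit that holds the diabetic embryos. In normal libraries alone, with no filter on low counts, 0 of 9 RNAs passed, and Rnu12 had −2.05 (adjusted p = 0.249). Rnu12 in normal concepti had a median of 1.98 CPM in embryos at 5–6 and 3.39 at 7–9 somite pairs, and 0.815 and 0.169 in yolk sacs. In diabetic concepti the embryo median went from 4.83 to 25.8 CPM and that of yolk sacs from 1.11 to 1.03.

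Sex and maternal glucose were examined next. No RNA differed between male and female embryos (0 of 9) or yolk sacs (0 of 5) at an adjusted p under 0.05, beside 0.133% and 0.0921% of all genes. In yolk sacs the male minus female differences were −0.95 ± 0.38 for Rnu11, −0.67 ± 0.27 for Rny3 and −0.54 ± 0.20 for Rny1, each with an unadjusted p under 0.05 and an edgeR adjusted p of 0.99995. The highest summed levels of the 9 RNAs among yolk sacs, 341, 187 and 175 CPM, were all in females of litter D24M15. No fit for sex without this litter was run. In 2 concepti embryo and yolk sac had different sex labels, and each library was used with its own. Across diabetic litters, with counts summed per litter and the litter with a reading above range left out, no RNA followed maternal glucose in the edgeR test (0 of 9 at each stage, beside 0% of all genes), and 345 and 159 genes had an unadjusted p under 0.05. The slopes per 50 mg/dl ranged from −0.29 (Rn7sk) to 0.41 (Rnu12) on the log2 scale at 5–6 and from −0.11 (Rn7sk) to 0.59 (Rnu11) at 7–9 somite pairs, with SEs of 0.27 to 0.59, so slopes of this size could not be told from 0 at this number of litters.

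Within groups the 9 RNAs varied together. After removal of the group means, the Pearson correlation of log2 CPM over 66 embryo libraries had a median of 0.839 among the 6 pairs of polymerase III products, 0.730 among the 10 pairs of polymerase II products and 0.720 among the 20 mixed pairs. It was highest for Rny3 with Vaultrc5 (0.933) and lowest for Rn7sk with Scarna17 (0.543). Without litter D24M15 the medians were 0.790, 0.671 and 0.664 over 57 libraries. In yolk sacs they were 0.541, 0.484 and 0.460, and 0.241, 0.349 and 0.257 without the litter. Counts were low in yolk sacs, and counting error lowers a correlation, so the tissues cannot be compared by these values. These points share library, depth and litter, and the correlations are given as a description. Rnu11 correlated with Vaultrc5 (0.916) and Rny3 nearly as well as these 2 polymerase III products did with each other.

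**Figure D5:**
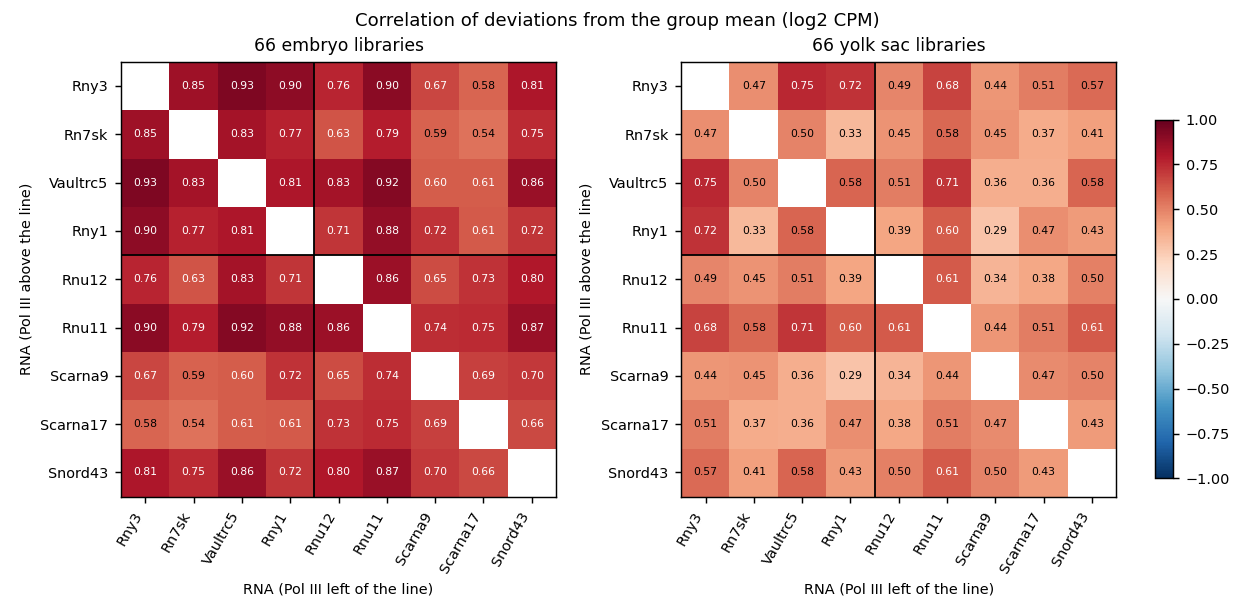
Pearson correlations between the 9 RNAs of the deviations of log2 CPM from the mean of the library's group, in 66 embryo libraries (left) and 66 yolk sac libraries (right), with color from −1 (blue) to 1 (red). Lines part polymerase III from polymerase II products. All correlations are positive, and those of embryos, with medians of 0.839, 0.730 and 0.720, are higher than those of yolk sacs. Counts were lower in yolk sacs, which limits their correlations.

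Of 11295 other genes, those most like the mean of the 9 RNAs over the 66 embryo libraries were Tmem245 (r = 0.889), Mir1983 (0.882), Gm26656 (0.876) and the small nuclear RNA genes Gm22973 (0.858) and Gm25541 (0.852). Without litter D24M15 these were 0.846, 0.837, 0.827, 0.803 and 0.792. The ranking is a description over libraries that share litters and depth.

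Other RNAs of the same kinds were counted from lists of the annotation. Between diabetic and normal embryos 5.2% of all genes tested were called higher at 7–9 somite pairs, and 0.591% at 5–6. Of 188 other polymerase III RNAs, 3 passed the filter at 7–9 somite pairs, and 1 was higher. This was Rpph1, the RNA of ribonuclease P, at 2.03 ± 0.31 (adjusted p = 7.78e-05) and 1.42 without litter D24M15 (adjusted p = 0.0136). The 5S ribosomal RNA genes n-R5s88 (−0.21) and n-R5s151 (−0.37) did not pass. Rpph1 at 5–6 somite pairs had 1.19 ± 0.35 (adjusted p = 0.0639) and none of 3 passed.

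Of the other C/D box small nucleolar RNAs 5 were tested at 7–9 somite pairs and 2 were higher, Snord13 (1.64 ± 0.33) and Snord104 (0.79 ± 0.20). Of the H/ACA box RNAs, which guide pseudouridylation, 7 were tested and 5 were higher, among them Snora68 (1.49 ± 0.26), Snora33 (1.18 ± 0.23) and Snora78 (1.09 ± 0.28). At 5–6 somite pairs 1 of 6, Snord104 (0.62 ± 0.15), and 0 of 7 were higher. Beside these stand 5.2% of all genes tested at 7–9 and 0.591% at 5–6 somite pairs. Both shares are from the fit of all libraries with no litter term, and the fits that follow have shares of their own, not given here. Without litter D24M15 the counts at 7–9 somite pairs were 1 of 5 and 3 of 7, with litter as a random block 1 of 5 and 4 of 7, and with counts summed per litter 0 of 6 and 0 of 7. The fit of litter sums called 8 genes in all at that stage. No member of the lists of other polymerase II small nuclear RNAs (18) and other small Cajal body RNAs (7) passed the filter in these fits. The lists were matched by gene name, and not every gene annotated as a small nuclear RNA is on them. Gm22973 and Gm25541, named above, passed the filter over the 66 embryo libraries. The host genes of the intronic RNAs did not pass the test: Rpl3 had −0.23 ± 0.17 (adjusted p = 0.379) and Cep295 had −0.05 ± 0.10 (adjusted p = 0.785) at 7–9 somite pairs, beside 2.81 for Snord43 and 2.04 for Scarna9.

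Histone messenger RNAs of the replication-dependent class, which also lack a poly(A) tail, were higher in 19 of 27 tested genes at 7–9 somite pairs and in 3 of 23 at 5–6, with none lower. The largest were Hist2h4 (2.21 ± 0.29), Hist1h4d (2.02 ± 0.30) and Hist4h4 (1.79 ± 0.29), and the median over the list was 1.07. Of the mitochondrial transfer RNAs 7 of 10 were higher at 7–9 somite pairs, led by mt-Tc (2.55 ± 0.62), mt-Tq (1.96 ± 0.40) and mt-Tv (1.87 ± 0.42), and 2 of 10 at 5–6. Of all genes tested, 5.2% at 7–9 and 0.591% at 5–6 somite pairs were called higher. These shares are from the fit of all libraries with no litter term, and the fits that follow have shares of their own, not given here. Without litter D24M15 the counts at 7–9 somite pairs were 11 of 27 histone genes and 7 of 10 transfer RNAs, with litter as a random block 13 of 27 and 0 of 10, and with counts summed per litter both were 0. With the litter block both were 0 at 5–6 somite pairs. At 7–9 somite pairs the fit of litter sums called 8 genes in all. The summed histone counts of diabetic embryos, 972 to 3016 (median 1560) at 7–9 somite pairs, overlapped with those of normal embryos, 631 to 2029 (median 881). In yolk sacs mt-Tq was higher at 7–9 somite pairs (2.06, adjusted p = 0.000587) and 1.36 without litter D24M15 (adjusted p = 0.153).

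The proteins that bind or make these RNAs are set beside 9.09% of all genes called in either direction at 7–9 somite pairs and 1.46% at 5–6. Both shares are from the fit of all libraries with no litter term. Of 10 tested partner proteins of Y, 7SK and vault RNA, 1 was higher in diabetic embryos at 7–9 somite pairs. This was Larp7, which binds the 3′ end of 7SK, at 0.27 ± 0.06 (adjusted p = 0.00901). Trove2 (−0.07), Ssb (0.01), Mvp (0.10), Hexim1 (−0.22) and Mepce (0.33) did not pass. Of 12 minor spliceosome proteins 1 was higher, Zmat5 (0.47 ± 0.15), and of 14 proteins of small nucleolar and Cajal body RNAs 3 were, Snu13 (0.59 ± 0.12), Nhp2 (0.39 ± 0.11) and Nop56 (0.34 ± 0.08). Of 30 polymerase III subunits and factors Gtf3a (0.31 ± 0.10) was higher and Polr3f (−0.40 ± 0.12) lower. Of 14 subunits of Integrator, which cleaves the 3′ ends of U RNAs, Ints11 (0.25 ± 0.08) was higher, and 0 of 19 genes of 3′ end oligoadenylation and trimming passed. With litter as a random block none of the minor spliceosome proteins, polymerase III factors and Integrator subunits passed at 7–9 somite pairs, while the partner proteins held 1 called gene and the small nucleolar and Cajal body proteins 3. With counts summed per litter none of these protein lists held a called gene, nor did any at 5–6 somite pairs. The fit of litter sums at 7–9 somite pairs called 8 genes in all.

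Between tissues the partner proteins did not share 1 direction. In yolk sacs at 7–9 somite pairs Mvp was higher by 2.06 and the vault protein Parp4 by 1.78, whereas Vaultrc5 was lower. Trove2 fell by 1.53 on the log2 scale, and both Y RNAs were lower too. Hexim1 was higher (0.76) and Mepce lower (−0.82), with adjusted p of 4.36e-11 and 2.03e-13. Of the 11 partner proteins tested 3 were higher and 7 lower in yolk sacs at each stage. Of all genes tested, 39.8% at 5–6 and 42.6% at 7–9 somite pairs were called lower. Most genes were called in 1 direction or the other, so these counts say little about the partner proteins.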

How the data were processed

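QuantSeq 3′ end libraries with unique molecular identifiers were made with oligo(dT) priming from single embryos and yolk sacs. The authors aligned reads to mm10 with STAR, collapsed identifiers and counted genes with HTSeq, and deposited raw counts of molecules per gene and library; versions, annotation and strand setting are not given in the sources used here. Of the genes, 26051 had no symbol in the table and 25646 of these, all 9 RNAs among them, were named by identifier from GENCODE M21. The 4 duplicate libraries entered no comparison. Counting error is larger the lower the count, and the 9 RNAs together had 34 to 3667 counts per library.

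Counts were tested with edgeR 4.0.16 in R 4.3.3: TMM normalization, filterByExpr with a minimum count of 10, quasi-likelihood F test and Benjamini-Hochberg adjustment over all genes of the fit, with an adjusted p under 0.05 as threshold. Diabetes was fitted within tissue and stage, tissue within stage, and stage, sex and glucose as described with each result. Normalized counts were counts divided by DESeq2 1.42.0 size factors within tissue and stage. CPM were counts scaled to the library total, without TMM factors. Correlations between genes used log2 CPM with TMM factors within a tissue and a prior count of 2. Scripts were checked on simulated counts. Embryo and yolk sac were matched by conceptus through their labels for the counts of concepti and the correlation between tissues. The tissue fits, those of normal libraries among them, held no conceptus term. Only the alternative with the conceptus as replicate block, over both conditions, did. Alternatives were other normalization, other filters, DESeq2, litter as a random block, counts summed per litter, covariates, all 8 groups in 1 fit and leaving out each litter.

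The 9 RNAs and the other gene lists were chosen with earlier results of these data known. The 9 are not each given with a value in each comparison. For stage in yolk sacs, stage by tissue, sex and maternal glucose, values are given for some of them and the others enter as counts. From other lists, at most 3 called genes in each direction with the largest log2 difference are named. Tested genes of lists with at most 12 tested genes may be named too. The host genes and the 5 genes most correlated with the mean of the 9 are also named. Other genes of the summaries are given as counts.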

Additional observations from a re-analysis of the deposited data

Results flagged for a closer look

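The change of Rnu12, the U12 RNA of the minor spliceosome, with stage differed between the tissues by −1.87 ± 0.50 on the log2 scale in an edgeR interaction term over 132 libraries. These include the diabetic embryos on which Rnu12 was chosen, and Rnu12 did not pass the count filter in yolk sacs or in normal embryos alone, so the value is a description. In normal libraries with no filter on low counts it was −2.05 (adjusted p = 0.249), and over all litters but D24M15 it was −2.19. From 5–6 to 7–9 somite pairs the median went from 1.98 to 3.39 CPM in normal embryos, from 4.83 to 25.8 in diabetic embryos, from 0.815 to 0.169 in normal yolk sacs, of which 8 of 16 had no count at the later stage, and from 1.11 to 1.03 in diabetic yolk sacs, none of which was at 0.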

How the results depend on the processing

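The number of the 9 RNAs higher in diabetic embryos at 5–6 somite pairs, 5, fell to 0 with litter as a random block and to 0 with counts summed per litter, and leaving out 1 litter at a time gave 0 (without N28M06) to 6 (without D28M37), with 1 without D24M15, D28M23 or N28M22, 2 without D24M22, D28M02, N24M29, N28M03 or N28M25, and 3 without D28M27, N28M05 or N28M30. At 7–9 somite pairs the 9 fell to 1 with litter sums and were 8 to 9 without 1 litter. The 9 were chosen on this contrast, so these counts describe the fits only. Genes called in embryos at 5–6 somite pairs, 161, were 397 with DESeq2, 291 with no count filter, 4 with the litter block, 0 with litter sums, 92 with somite number and sex as covariates, 324 with the number in the title as a covariate, 464 with all 8 groups in 1 fit, and 4 (without N28M06) to 675 (without N24M21) without 1 litter. At 7–9 somite pairs, 966 became 314 with the litter block, 8 with litter sums, 1714 with the title number, and 501 to 1067 without 1 litter. In yolk sacs at 5–6 somite pairs, 0 genes became 1 with the somite and sex covariates, 1 with the title number, 5 with all groups in 1 fit and 0 to 3 without 1 litter. At 7–9 somite pairs, 2 genes became 17 with DESeq2, 25 with no filter, 11 with a mean count of at least 10, 1 with the litter block, 0 with litter sums, 19 with all groups, and 0 (without D24M15) to 28 (without D28M31) without 1 litter, and 0 of the 9 RNAs became 1 (DESeq2), 3 (no filter), 3 (mean count of at least 10), 1 (all groups) and 0 to 1 without 1 litter, the 1 being Rny3 without D28M23, D28M31 or D28M36. With the conceptus as replicate block, tissue calls were 9292 and 9428 genes and 6 and 9 RNAs at the 2 stages, and among the 9 RNAs the call that changed was Scarna17 at 7–9 somite pairs (adjusted p = 0.052 without and 0.0213 with the block). With no filter they were 14068 and 14581 genes, beside 9243 and 9413, and sex called 27 genes in yolk sacs, beside 10. Alternatives with normal libraries only or without D24M15 for tissue and stage, the fits without D24M15 and with no filter in yolk sacs, and the tests of stage by tissue, were chosen after seeing the data. Normal libraries alone called 3 and 2 RNAs for tissue, where Scarna9 at 7–9 somite pairs changed sign (0.0245), 1 RNA and 1615 genes for stage in embryos, beside 3484, and 0 RNAs and 785 genes in yolk sacs, beside 4342; they hold fewer samples. Stage by tissue called 236 genes without D24M15, beside 393, and 1 gene and 0 of the 9 RNAs, beside 1, in normal libraries with no filter on low counts. The cause of the other changes was not tested. Low counts limit the yolk sac results, where 6 of the 9 RNAs did not pass the filter for diabetes.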

Other observations

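Of 2 concepti, embryo and yolk sac had each been prepared a second time as a batch control. In the embryo of litter D24M15 the original and duplicate libraries had 872 and 925 counts of Rny3, 509 and 564 of Rnu11, 248 and 273 of Vaultrc5, 208 and 251 of Rny1 and 169 and 187 of Scarna9, at totals of 2535105 and 2626999. In the normal embryo, from litter N28M06, they had 310 and 277 of Rny3, 84 and 100 of Rnu11 and 16 and 25 of Snord43, at totals of 5658850 and 5757211. After scaling by the DESeq2 size factors of each pair, the 9 RNAs differed between the embryo duplicates by −0.29 (Scarna17) to 0.63 (Snord43) on the log2 scale. The yolk sac duplicates had few counts, with 6 and 9 of Rny3 and 49 and 36 of Scarna9 in litter D24M15.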
